A study of Mus musculus with 8 samples.

Results

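The 10 genes described here encode the main heat shock chaperones of the cytosol and the mitochondrion: Hspa1a, Hspa1b, Hspa8, Hsp90aa1, Hsp90ab1, Hsph1, Dnajb1, Dnaja1, Hspd1 and Hspe1. They were picked by symbol, with no threshold on their values but with earlier results of these data known, and all 10 are among the 23997 genes of the deposited table. Marginal zone B cells (MZBs), splenic B cells that face the blood and answer it early, came from C57BL/6 mice as 4 libraries of the genotype given as ACKR3+ and 4 of ACKR3-, with titles that name the same groups GFPposi and GFP-. No further treatment, age or allele is stated for either group, and ACKR3 is an atypical receptor that takes up the chemokine CXCL12. The table gives each gene 1 estimated fragment count and 1 variance for each of 2 conditions, q1 and q2, and neither name could be tied to a genotype from the labels or headers.

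Chaperones hold unfolded or newly made proteins and release them for folding. Members of the HSP70 family (Hspa8, always present, and the stress-inducible Hspa1a and Hspa1b) bind clients in an ATP cycle that J proteins such as Dnajb1 and Dnaja1 start and that nucleotide exchange factors such as Hsph1 reset. HSP90, made by the inducible Hsp90aa1 and the constitutive Hsp90ab1, takes over signalling proteins and nuclear receptors from HSP70, while Hspd1 and Hspe1 form the barrel and lid of the mitochondrial folding chamber. Heat shock factor 1 raises many of these genes under stress by binding repeats of the letters GAA in alternating orientation in their promoters.

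The chaperones were nearly level between the conditions, apart from the inducible HSP70 pair, which was lower in q2, and Dnaja1 and Hsph1, which were higher in q2. Hspa1a was 1.35-fold and Hspa1b 1.24-fold lower in q2, at log2 ratios of q2 over q1 of -0.44 ± 0.23 and -0.31 ± 0.19. Dnaja1 stood at 0.35 ± 0.23 and Hsph1 at 0.28 ± 0.19. The other 6 genes lay between -0.03 and 0.10. Here and below a log2 ratio is taken on the count plus 1, and ± is 1 SD from the deposited variances. With 1 pooled value per condition there is no replicate check and no p-value, so these are differences in size only, and in bulk cells fewer expressing cells and less RNA per cell cannot be told apart.

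The promoters of the 2 inducible HSP70 genes are shown because both genes were lower in q2 and are nearly copies of each other. Their transcripts share much of their sequence, as given below, so their 2 ratios are not independent. Each line gives the 250 bases before the RefSeq start (GRCm38.p6, the assembly called mm10), 5′ to 3′ on the minus strand, with capitals for GAANNTTC, a pair of heat shock units, and for the CCAAT box, which reads ATTGG here because it lies on the opposite strand.

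Hspa1a, chr17:34972157-34972406: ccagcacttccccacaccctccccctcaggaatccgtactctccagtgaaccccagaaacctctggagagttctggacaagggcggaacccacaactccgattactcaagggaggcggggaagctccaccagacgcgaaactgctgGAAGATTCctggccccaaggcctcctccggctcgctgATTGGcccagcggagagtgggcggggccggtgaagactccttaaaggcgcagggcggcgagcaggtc

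Hspa1b, chr17:34959239-34959488: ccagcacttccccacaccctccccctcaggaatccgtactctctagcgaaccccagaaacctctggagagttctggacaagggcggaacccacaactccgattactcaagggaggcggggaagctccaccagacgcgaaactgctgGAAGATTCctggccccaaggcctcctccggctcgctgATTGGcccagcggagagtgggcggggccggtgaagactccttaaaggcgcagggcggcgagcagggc

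The Hspa1a and Hspa1b windows were identical at 98.8% of 250 bases. They differed at 3 positions, C44T, T47C and T249G, counted from 1 at the 5′ end with the Hspa1a base before the position and the Hspa1b base after it. Both hold GAANNTTC 104 bases and CCAAT 67 bases before the start. RefSeq windows were matched for 7 of the 10 genes: Hspa1a, Hspa1b, Hsph1, Dnajb1, Dnaja1, Hspd1 and Hspe1. A further 3 sites of 30 bases are shown with the units in capitals: Dnaja1 has the GAANNTTC form seen in the HSP70 pair, and the chromosome 1 and Hsph1 sites are arranged differently.

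Hspd1 and Hspe1, chr1:55088053-55088082, plus strand, the Hspe1 orientation: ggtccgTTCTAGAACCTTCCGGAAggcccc

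Dnaja1, chr4:40722333-40722362, plus strand: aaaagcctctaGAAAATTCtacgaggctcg

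Hsph1, chr5:149636351-149636380, minus strand: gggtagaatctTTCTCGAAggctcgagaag

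Hspd1 and Hspe1 are a divergent gene pair, read away from each other, and their annotated ends overlap by 112 bases. Whether the chromosome 1 site acts on either gene was not tested. It is the only site in the 7 matched genes with 3 units in a row (GAANNTTC followed by NNGAA, on either strand), and the capitals cover 2 overlapping matches of that form. Both genes' windows include it, with GAANNTTC 139 bases before the Hspd1 start and 84 before that of Hspe1. Of all 27025 genes with a RefSeq window, 0.514% hold that 3-unit form. GAANNTTC was found in 5 of the 7 members, against 7.73% of all genes, and TTCNNGAA in 3 of 7, Hsph1, Hspd1 and Hspe1, against 8.11%. CCAAT was in 5 of 7, against 37.5%, and TATAAA in none of the 7, against 14.3%. Both strands were searched. The shorter forms lie within the 3-unit form, so these matches overlap. Nor are the genes independent, since Hspd1 and Hspe1 share the chromosome 1 site and the Hspa1a and Hspa1b windows are nearly copies. There are thus fewer separate sites than genes counted. The Dnajb1 window held neither heat shock form, which says only that these letters are absent from that window. A gene with several windows was counted if any of them held the form. For Dnaja1, GAANNTTC lies in the window that starts at 40722218. Its windows that start at 40722672 and 40722680 held CCAAT but neither heat shock form. The chromosome 1, Dnaja1 and Hsph1 sites lie in annotated exons of GENCODE M21, and the Hspa1a and Hspa1b sites do not.

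Among the folding chaperones, Hspa8, the constitutive HSP70, had 39505 ± 4549 fragments in q1 and 41268 ± 4888 in q2. It ranked 17 among all genes by count in q1 and 13 in q2, and its log2 ratio was 0.06 ± 0.24. The values in the 2 conditions overlap within 1 SD. Hspa1a had 574 ± 62.2 fragments in q1 and 423 ± 49.4 in q2, and Hspa1b had 1415 ± 130.1 and 1141 ± 107.8. For both inducible genes q1 was the higher condition and the ranges of 1 SD did not overlap. The share of all genes without such overlap was not computed, here or for the genes below. Clopper-Pearson 95% intervals of the log2 ratios were -0.63 to -0.26 for Hspa1a and -0.42 to -0.20 for Hspa1b. Leaving out equal counts does not set this pair apart, since only the intervals of Dnajb1 and Hspe1 included them. Even genes that were nearly level left them out, such as Hspa8 (0.04 to 0.08), Hsp90aa1 (0.06 to 0.14) and Hsp90ab1 (-0.06 to -0.01). All these intervals cover counting error only and treat the rounded estimates as raw counts. The deposited values are pooled estimates, so the number of fragments truly counted is unknown and the intervals are approximate. Together the pair stood at -0.35 ± 0.15. Hspa1a lay low in the distribution of ratios, with 2.74% of the 9582 genes of at least 100 fragments lower still, and for Hspa1b this share was 5.06%.

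Of the co-chaperones that drive the HSP70 cycle, the members Dnaja1, Dnajb1 and Hsph1 were level or higher in q2, unlike the inducible pair. J proteins outside the members went either way, as given below. Dnaja1, a J protein that stimulates HSP70, had 3207 ± 346 fragments (q1) against 4089.8 ± 496 (q2), and its ranges of 1 SD did not overlap. Dnajb1, the J protein usually induced together with HSP70, had 1971 ± 176 and 2063 ± 184, at 0.07 ± 0.18, with overlapping ranges. Hsph1, the HSP110 exchange factor, had 2293 ± 205 and 2784 ± 259, without overlap of the ranges. The Hsph1 ratio was above that of 91.8% of genes, and that of Dnaja1 above 93.8%.

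The HSP90 genes and the mitochondrial pair were level. Hsp90ab1 had 31761 ± 3443 fragments (q1) against 31003 ± 3341 (q2), at -0.03 ± 0.22. Hsp90aa1, its inducible relative, had 10874 ± 995 and 11666 ± 1066, at 0.10 ± 0.19. Within each gene the conditions overlapped. Hspd1 had 4002 ± 346 and 4195 ± 362 fragments and Hspe1 1479 ± 135 and 1548 ± 140.3, again overlapping. The log2 ratios of this divergent pair were 0.07 ± 0.18 and 0.07 ± 0.19.

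**Figure D1:**
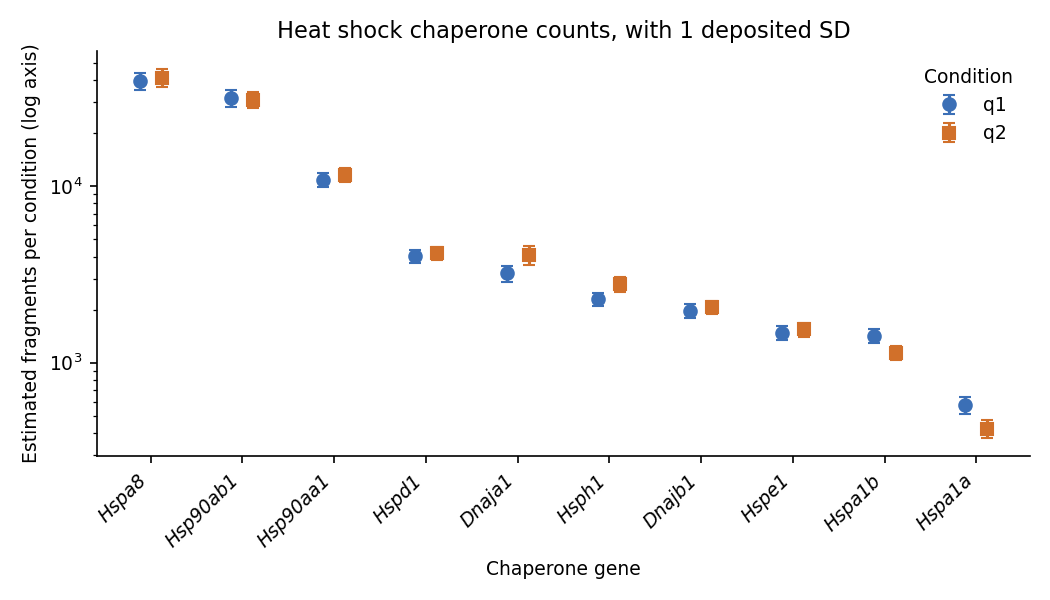
Estimated fragments (vertical log axis) of each chaperone gene in q1 (circles) and q2 (squares), with bars of 1 deposited SD; genes are ordered by their q1 count. The range runs from Hspa8 at 41268 fragments in q2 to Hspa1a at 423 in q2. The bars of q1 and q2 do not overlap for Hspa1a, Hspa1b, Dnaja1 and Hsph1. The share of all genes without such overlap was not computed.

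None of the 10 chaperones was at least 2-fold apart, against 2.28% of all genes with at least 100 fragments (0.438% higher in q1 and 1.84% higher in q2). Under a smaller rule, an absolute log2 ratio of 0.32, 1 of 10 was past it toward q1, Hspa1a, against 4.59% of all genes, and 1 toward q2, Dnaja1, against 6.9%. Both directions together gave 2 of 10, against 11.5%. Hspa1b, at 1.24-fold, fell just short of that rule, and Dnaja1, at 1.28-fold, lay just past it. A ratio beyond its own SD toward q1 was found for Hspa1a and Hspa1b, 2 of 10 against 8.41% of all genes. These near copies are not independent, so they may count a single difference 2 times. Toward q2 a ratio beyond its own SD was found for Hsph1 and Dnaja1, 2 of 10 against 11.1%. Both directions together gave 4 of 10 against 19.5%, with the same limit. By sign alone 7 of 10 were higher in q2, against 50.2% of all genes, and 3 of 10 in q1, against 49.8%. The median log2 ratio of the 10 was 0.07, beside 0.00 for all 9582 genes, and their median absolute log2 ratio was 0.085 beside 0.10.

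**Figure D2:**
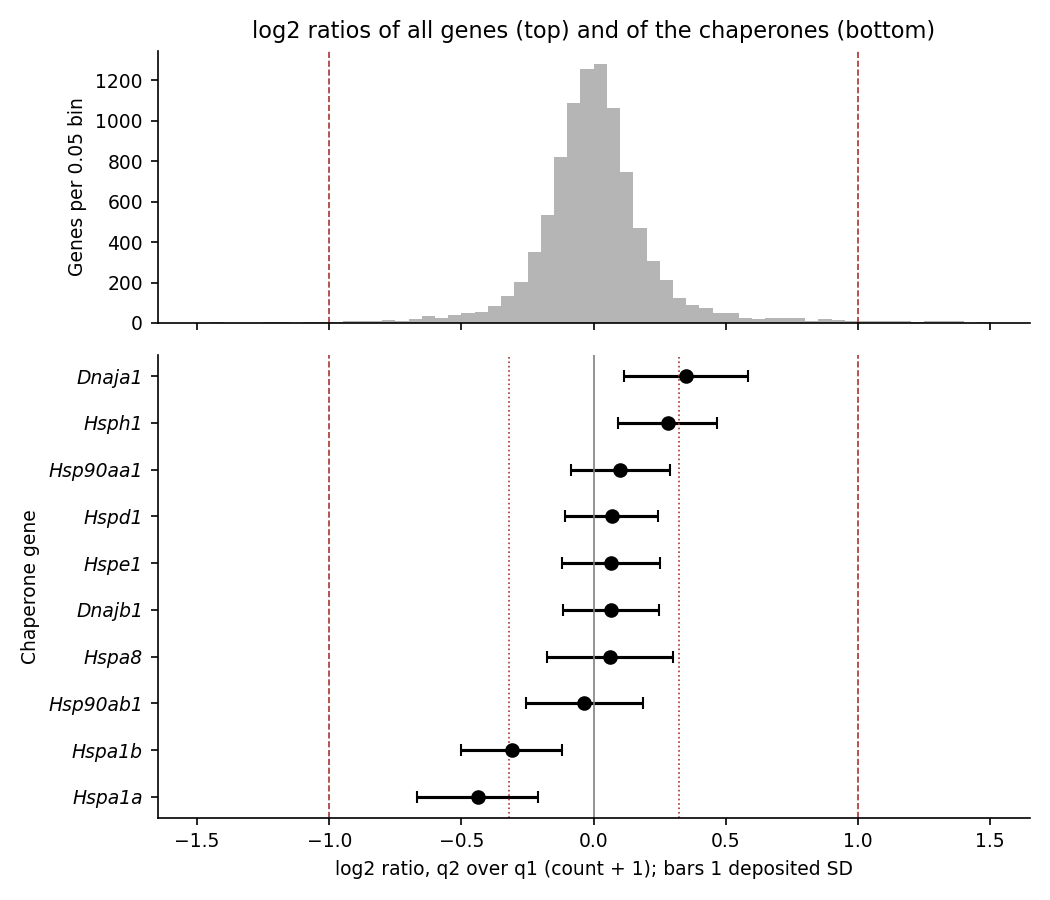
Top, number of genes (vertical axis) per bin of log2 ratio, q2 over q1, for the genes of at least 100 fragments, with 115 genes outside the plotted range; bottom, the ratio of each chaperone with a bar of 1 deposited SD. Dashed lines mark 2-fold and dotted lines the smaller rule, and the chaperones span -0.44 (Hspa1a) to 0.35 (Dnaja1), all inside 2-fold.

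Summed over the 10 genes, chaperones held 97082 ± 5822 fragments in q1 and 100181 ± 6058 in q2, or 0.575% and 0.602% of each condition's total. The log2 ratio of the sums was 0.05 ± 0.12. Hspa8, Hsp90ab1 and Hsp90aa1 supplied 84.6% of the chaperone fragments in q1 and 83.8% in q2. The inducible pair Hspa1a and Hspa1b supplied 2.05% and 1.56%, so its difference is scarcely seen in the sum. Without Hspa8 the log2 ratio of the sums was 0.03.

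Levels of different genes were compared as fragments per kilobase of the longest annotated transcript. Hsp90ab1 and Hspa8 led in q1, with 12603 ± 1366 and 12509.6 ± 1440.5, and in q2 with 12303 ± 1326 and 13068 ± 1548; they differed by less than their SDs in either condition. Hsp90aa1 followed with 3314 ± 303 in q1 and 3556 ± 325 in q2. Hspd1 and Hspe1 came next and did not differ beyond their SDs, at 1652 ± 143 and 1534 ± 139.9 in q1. Lower in the order were Dnajb1, Dnaja1, Hspa1b and Hsph1 with levels between 481 and 658 in q1 and between 407 and 727 in q2. Hspa1a was lowest in both, at 193 ± 21.0 and 143 ± 16.6, and the highest level in q1 was 65.1 times the lowest.

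This order depends on which length is used, because the untranslated ends differ. Per kilobase of coding sequence, Dnaja1 had 2686 in place of 570.4 in q1 and Hspe1 4786 in place of 1534, the latter then near Hsp90aa1 at 4938. Hspd1 had 2324 by this length in q1, so Hspd1 and Hspe1 were close only per kilobase of transcript. Hspa8 was then above Hsp90ab1 in q1, at 20353 against 14603. Hspa1a remained the lowest, at 298 in q1.

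Ratios between partners within a condition do not depend on how the conditions were scaled to each other. Per kilobase, Hspa1a plus Hspa1b amounted to 0.056 of Hspa8 in q1 and 0.042 in q2. The log2 difference, q2 minus q1, was -0.41 ± 0.28, the largest of the 6 pairs compared and the only one beyond its SD. Hspa1a over Hspa1b changed by -0.13 ± 0.30, less than its SD, at 0.38 in q1 and 0.35 in q2. The Hsp90aa1 share moved little: Hsp90aa1 over Hsp90ab1 was 0.26 in q1 and 0.29 in q2, a log2 difference of 0.14 ± 0.29. Hspd1 over Hspe1 was 1.08 in both conditions, with a log2 difference of 0.0024 ± 0.26. Per kilobase of coding sequence that ratio was 0.49 in both, so a level near equality depends on the length used. Dnajb1 over Dnaja1 differed by -0.29 ± 0.30 and Hsph1 over Hspa8 by 0.22 ± 0.30, each within its SD.

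**Figure D3:**
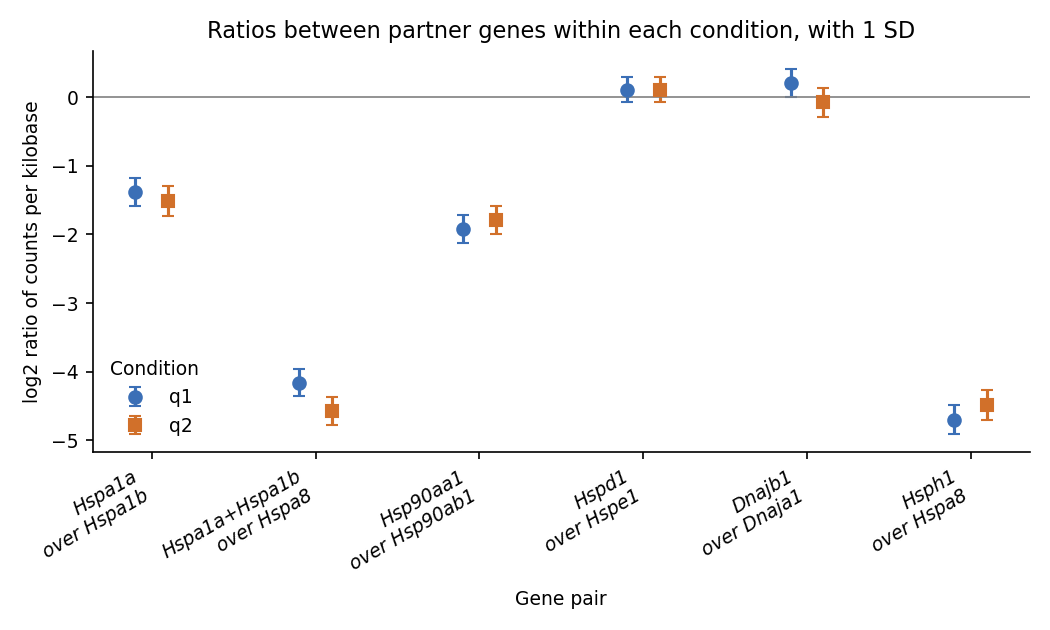
Log2 ratio of fragments per kilobase between partner genes (vertical axis) for each of the 6 pairs, in q1 (circles) and q2 (squares), with bars of 1 SD from the deposited variances. Hspa1a plus Hspa1b over Hspa8 is lower in q2 (-4.57) than in q1 (-4.16), while Hspd1 over Hspe1 is 0.11 in both.

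How well fragments can be assigned differs between these genes, and several counts are uncertain for that reason. The coding sequences of Hspa1a (chromosome 17, 34969190 to 34972156, minus strand) and Hspa1b (34956436 to 34959238) are 99.4% identical, with 8 mismatched bases in 1926, and 9951 bases separate the genes. Of all 50-base words in the Hspa1b transcript, 62.3% also occur in that of Hspa1a, so how fragments were divided between the pair is uncertain while their sum is less so. Hspa1a also lies over 2225 bases of Gm20481, an annotated gene on the opposite strand that has no deposited count under this name. The share of words found in transcripts of other genes, on either strand, was 74.8% for Hspa8, 66.3% for Hspa1a, 58.5% for Hsp90aa1, 44.8% for Hspd1, 44.8% for Hspe1 and 28.8% for Dnaja1. For Hspa8, Hsp90aa1 and Hspd1 the largest overlap was with a processed pseudogene, Gm15459, Gm12346 and Hspd1-ps3 in turn. These pseudogenes have no deposited counts under these names either. The share of words was low for Hsp90ab1, at 4.49%, and Dnajb1, at 0.441%, and no word of Hsph1 was shared. The constitutive HSP70 Hspa8 is less alike, at 73.9% coding identity with Hspa1a, and Hsp90aa1 and Hsp90ab1 share 75.6%.

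**Figure D4:**
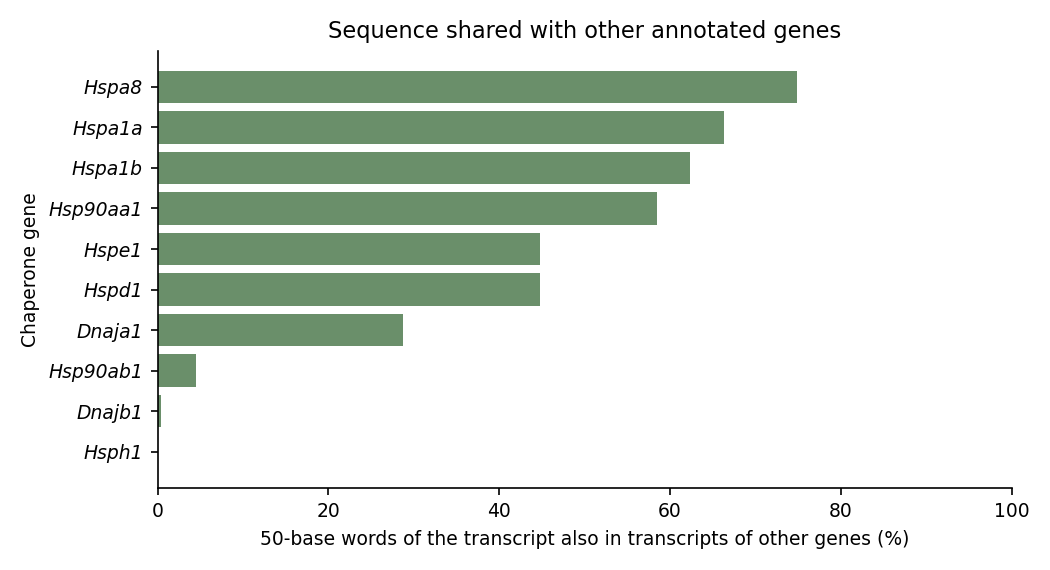
Share of the 50-base words of each chaperone transcript (horizontal axis, percent) that also occur in a transcript of another GENCODE M21 gene, on either strand. Hspa8 is highest at 74.8%, and Hsph1 has none.

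Dnaja1, the gene with the largest ratio toward q2, also had a variance larger than its dispersion part. The total was 1.13 times that part in q1 and 1.38 times in q2, whereas for the other 9 chaperones the factor was at most 1.0004. An excess of more than 5% in either condition was present in 9.18% of the 9582 genes. Dnaja1 (chromosome 4, 40722150 to 40737149, plus strand) overlaps Smu1, which lies on the opposite strand, by 608 bases, and the genes share part of their 50-base words there. Smu1 had 1186 and 1309 fragments, at 0.14 ± 0.50, and its variance was 1.33 and 2.71 times the dispersion part. Whether counting used strand is not given in the sources used here, so it is unknown if reads of Dnaja1 and Smu1 were separated where they overlap.

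Of the genes that work with these chaperones, 109 in 8 lists were in the table, and 90 had at least 100 fragments. Among these 90 the higher value was in q2 for 54 and in q1 for 36, and the median was 0.04. Over all genes 50.2% were higher in q2 and 49.8% in q1, which is the background for this sign count and for those of the single lists, none of which was tested. Only 1, Hspa2, was at least 2-fold apart, against 2.28% of all genes, and 5 were past the smaller rule, against 11.5%. Heat shock factors were level: Hsf1, the main regulator of the stress response, had 1329 and 1225 fragments in q1 and q2, at -0.12 ± 0.19. The related factor Hsf2, at 0.17 ± 0.31, and Hsbp1, which binds heat shock factor trimers, at 0.05 ± 0.20, made up the rest of the 3 that reached 100 fragments of 7 on that list.

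Other HSP70 and HSP110 genes were the most spread list, with 4 of 5 higher in q2 and a median of 0.12. Hspa2, an HSP70 best known from germ cells, had 57.5 and 142.3 fragments, at 1.29 ± 0.40. Hspa4l, an HSP110 relative of Hsph1, had 133 and 244, at 0.87 ± 0.31. Both are low counts beside Hspa4, the abundant HSP110 gene, which had 4036 and 4399 fragments, at 0.12 ± 0.18. Hspa12a, a distant HSP70 relative, stood at -0.26 ± 0.23. Exchange factors and co-chaperones of HSP70 had a median of 0.10 over 8 genes, none past the smaller rule, led by Stip1, the adaptor that joins HSP70 to HSP90, at 0.25 ± 0.18, Bag4 at 0.19 ± 0.23 and St13 at 0.14 ± 0.18.

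J proteins of the cytosol and nucleus divided, with 9 of 19 higher in q2 and a median of -0.01. Dnaja4, a close relative of Dnaja1, was lower in q2, with 229 against 131 fragments, at -0.80 ± 0.31. Dnajb4, a relative of Dnajb1, had 764 and 584, at -0.39 ± 0.21. Dnajc9, which also handles histones, had 999.8 and 1374, at 0.46 ± 0.19. Dnajc7 had the most fragments per kilobase of this list, 2259 in q1 and 2188 in q2. HSP90 co-chaperones had 15 of 21 higher in q2 and a median of 0.06. Their largest ratios were those of Chordc1, at 0.24 ± 0.18, Ppp5c, a phosphatase bound to HSP90, at -0.24 ± 0.18, and Ptges3, which stabilises the closed form of HSP90, at 0.24 ± 0.18. Fkbp8 was the highest of them per kilobase, at 1589 and 1475.

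Mitochondrial chaperones and proteases were level like Hspd1 and Hspe1, with a median of -0.03, none of 19 past the smaller rule and 1 beyond its SD. By sign 13 of the 19 were higher in q1. The largest ratios were those of the proteases Afg3l2, at -0.19 ± 0.19, Clpp, at -0.18 ± 0.24, and Lonp1, at -0.17 ± 0.19. Hspa9, the mitochondrial HSP70 that feeds the Hspd1 chamber, had 3411 and 3345 fragments, at -0.03 ± 0.18. The cytosolic chaperonin and prefoldin, which fold actin and tubulin, had 11 of 14 higher in q2 and a median of 0.06, with Vbp1 at 0.14 ± 0.20, Pfdn1 at 0.13 ± 0.25 and Pfdn4 at 0.11 ± 0.31. Pfdn5 was the highest of these per kilobase, at 2583 in q1 and 2465 in q2. Small heat shock proteins were scarce: of 10 on the list only Hspb11 reached 100 fragments, with 105 and 107 (0.02 ± 0.36), and Hspb2 and Hspb8 were listed at 0 in both conditions.

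**Figure D5:**
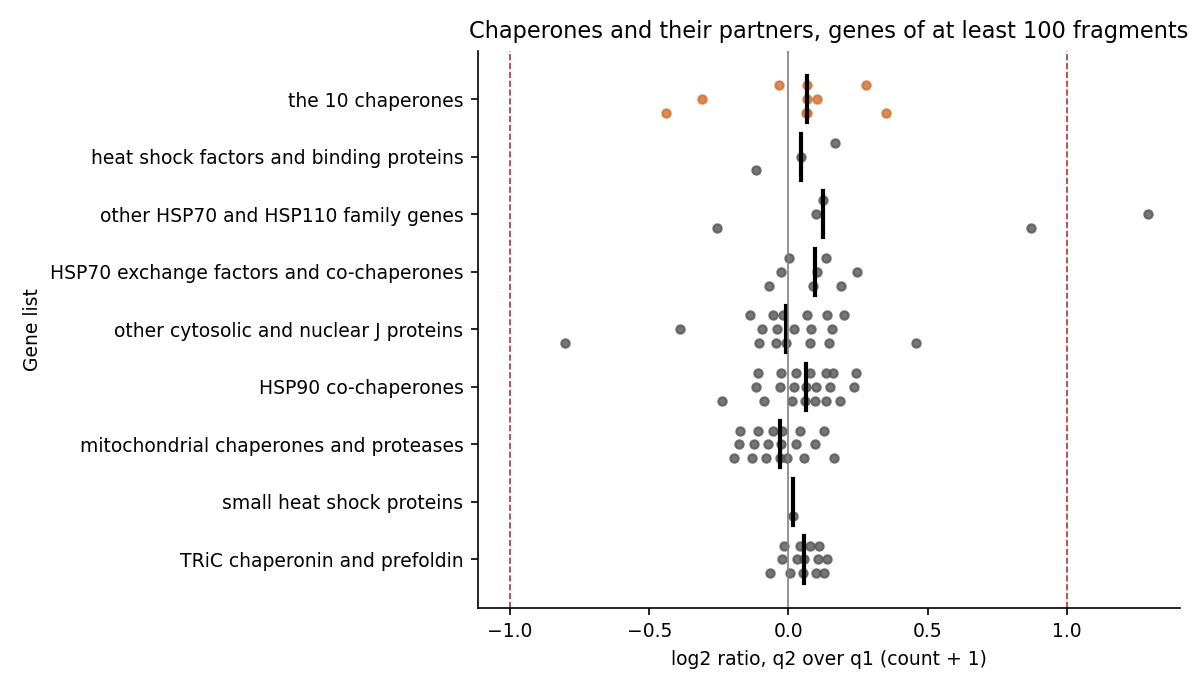
Log2 ratio, q2 over q1 (horizontal axis), of each gene with at least 100 fragments in the 10 chaperones and in 8 lists of related genes (vertical axis); the black bar is the list's median, the vertical offset of points has no meaning, and dashed lines mark 2-fold. Medians lie between -0.03 and 0.12, and Hspa2, at 1.29, is the gene beyond 2-fold.

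Depth and cell markers set the frame for these values. The column totals were 16877559 fragments for q1 and 16653774 for q2, while library depths are unknown. Marginal zone identity was present in both conditions, with Cr2, the complement receptor CD21, at 81167 and 70851 fragments and Cd1d1 at 5917 and 3468, while Ackr3 had 1030.0 and 149. All 14 genes of the marginal zone list were higher in q1 (median -0.25), and 6 of 8 follicular markers were higher in q2 (median 0.60). Beside the lower Hspa1a and Hspa1b in q2, 10 of 14 immediate early genes of at least 100 fragments, a list of genes known to respond to tissue dissociation, were higher in q1 (median -0.27, sums of 84545 and 71915 fragments), and so were 6 of 8 macrophage genes (sums of 1557 and 1044 over 17 genes). Beside the higher Dnaja1 and Hsph1, each of 26 cell cycle genes had its higher value in q2 (median 1.73, sums of 12304 and 26086). So did 11 of 12 germinal center and plasma cell genes (sums of 17577 and 50563). Of these last sums Igj alone gave 3234 and 33006, most of the difference. T and NK cell markers summed to 821 and 1119.5 fragments, mostly Lck, and neutrophil, erythroid and platelet markers to 102 and 119.7. No marker of these lists was at 0 in both conditions, and their part in the chaperone ratios was not tested.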

How the data were processed

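Libraries were made from total RNA with an Illumina TruSeq RNA kit, per the labels' protocols. Cutadapt 1.8.1, TopHat2 2.0.14, Cuffdiff 2.2.1 and mm10 are named in the submitters' processing notes; gene models, strandedness and read filters were not given in the sources used here. The estimated counts and their variances were deposited by the authors as Cuffdiff's table of 2 conditions, per the file headers, pooled over libraries. No gene had an isoform assignment variance above 0, and the sources do not state if a variance is that of a single library or of a mean.

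An edgeR test planned for counts per library could not be used on 2 pooled values, so genes were described by size, with a pseudocount of 1 and a minimum of 100 fragments in the higher column. SDs follow from the deposited variances to first order, and genes were treated as independent in sums and ratios. Calculations used Python 3.11.15, pandas 2.3.3, numpy 2.4.6, scipy 1.17.1 and Biopython 1.88. Only the log2 ratios and their SDs were tested on simulated data, drawn with deposited variances. Positions, lengths and 50-base words came from GENCODE M21 (GRCm38), and promoters from RefSeq (GRCm38.p6). The transcript with the longest coding sequence stood for each gene in word and identity comparisons.

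The 10 genes, the lists and the pairs were chosen with earlier results of these data known. Named beyond the 10 were the 3 largest absolute ratios and the highest count per kilobase of each related list, with Ackr3, Cr2 and Cd1d1; Smu1, Lck, Hspb2, Hspb8, Gm20481 and the pseudogenes fall outside that rule and were named after the results were seen. The protein sequences planned for comparison were not used here, and coding sequences were compared in their place.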

Additional observations from a re-analysis of the deposited data

How the results depend on the processing

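Alternatives were pseudocounts of 0 and 10, columns scaled by their totals or by a median ratio, minimums of 20 and 500 fragments, the sum without Hspa8, and coding in place of transcript length. The 60 recomputed ratios of the 10 chaperones moved by less than counting error, which treats the estimates as raw counts, and kept their sign. Those under other minimums could not move, because a minimum does not enter a gene's ratio. All 10 reach 500 fragments in at least 1 condition (Hspa1a in q1 alone), so no minimum removed a chaperone. The log2 ratio of the summed counts moved from 0.045 to 0.065 with equal totals, a shift set by the ratio of the totals. In all, 92 of 93 recomputed values stayed within counting error or, for counts and shares of genes, within 1.5 times. Highest over lowest level and partner ratios were held to narrower limits of their own. Coding length cancels in the q2 minus q1 difference of a pair of single genes, so those differences could not move either. The 92 includes such fixed values. No paired analysis was possible because each condition comes as a single pooled estimate without replicate numbers. Leaving out libraries was likewise not possible, and edgeR, DESeq2 and their normalizations were not run. The spread between libraries cannot be seen in this table, and depth per library is unknown, so neither limit can be sized.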
